A study of Mus musculus with 12 samples.

Results

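Of the 27319 genes listed for hindlimb fibroblasts treated with aldosterone or vehicle, 29 lay below 4 normalized counts in every vehicle library and at 5 or more in every aldosterone library. These 29 genes are described here, and genes whose symbol starts with *Serpina3* were left out (1 further gene met both limits). The members were chosen by their aldosterone and vehicle values, so the difference between these 2 treatments is a description and carries no test. Their values with spironolactone, their position in the genome, their relatives and the letters before their start sites were not used to choose them.

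The cells were primary fibroblasts from hindlimb skeletal muscle of 3-day-old wild-type mice of strain C57 BL/10, with no allele or agent besides the treatments. They were kept in medium with charcoal-stripped serum, which lacks most steroids, and received 1 µM aldosterone, 1 µM spironolactone or the DMSO vehicle for 48 hours. Cells came from 2 mice, each plated in duplicate (2 plates) per treatment, hence 4 poly(A) RNA libraries per treatment and 12 in all. Each library carries a sample number and a replicate number, and it is not stated whether the mouse is the former or the latter. All p-values measure the spread between these plates, not between independent animals. The main fits between treatments leave the difference between sample numbers in that spread. Per library, 19136923 to 30219185 reads were counted on genes. Normalized counts are counts divided by a size factor of the library, so 1 unit is about 1 read.

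Aldosterone is the adrenal steroid that activates the mineralocorticoid receptor, and at high concentration it also activates the glucocorticoid receptor. Both are transcription factors that bind the same paired DNA element once a ligand is bound. Spironolactone is a competitive antagonist of the mineralocorticoid receptor. The members are not a known pathway, and many are best known from other organs than muscle, such as liver, brain, retina or gut.

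The fibroblast markers (*Col1a1*, *Col1a2*, *Col3a1*, *Pdgfra*, *Thy1*, *Dcn*, *Lum*) were all measured, and their sum was at least 815714 in each aldosterone library. The summed level of 3 measured lymphocyte markers was at most 4.78 in any library, that of 2 liver markers (*Apoa1*, *Apob*) at most 4.20, and *Alb* was not listed. The sum of 5 endothelial markers was 679 to 754 with aldosterone and 473 to 533 with vehicle. Only *Kdr* of these was called, as higher, while *Pecam1* (mean 2.85 against 6.57) and *Cdh5* were not. For 3 fat markers the sum was 115 to 222 against 29.3 to 96.4, with only *Plin1* called, as higher. For 6 muscle markers it was 209.6 to 449 against 521 to 776, with only *Acta1* called, as lower. *Acta1* alone (mean 236 against 539) made up most of the muscle sum. Sums of macrophage, glia, neuron and epithelium markers held no called gene. The part of these differences in the values of the members was not tested. In such bulk samples, more cells of a type and more RNA per cell cannot be told apart. Of 11 genes known to respond to steroid receptors, 9 were called higher with aldosterone, among them *Fkbp5* and *Tsc22d3*, where 1.40% of all genes were. That list was chosen with earlier results of these data known.

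By class, 21 members are protein-coding genes, 5 are long noncoding RNAs and 3 are TEC loci, which are transcripts still to be tested by experiment. Secreted or extracellular proteins are *Orm1*, *F7*, *Cbln2*, *Dmkn* and *Nyx*, and *Capn9* is a protease. Proteins of the cell membrane are *Cldn10*, *Clec1a*, *Gabrr2* and *Tmem52*, while *Fam107a*, *Grap* and *Cpne7* act inside the cell at the actin cytoskeleton, receptors or membranes. The interferon-inducible *Ifi207* and *Ifi209*, the corepressor *Ripply1* and the WD-repeat gene *Wdr38* form another group. The coding member *9330159F19Rik* has no named role. Noncoding members are the long noncoding RNAs *BB123696*, *Gm35037*, *Gm15848*, *Gm28863* and *1700101I11Rik* and the TEC loci *Gm42528*, *Gm37022* and *Gm45743*. Protein-coding genes made up 72.4% of the members, 26.4% of the 7504 genes below 4 in every vehicle library and 60.6% of all genes. Genes on the X chromosome made up 4 of the 29 (*Ripply1* and *Nyx* among them), or 13.8%, and 3.28% of the genes below 4 with vehicle.

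Promoter sequences are shown for the member with the paired receptor element and for 3 with 1 arm of it, because both receptors bind this element. The windows come from RefSeq on GRCm38.p6, an older build than that of the deposited coordinates (*Fam107a* lies on opposite strands in these builds), and run from 250 bases before to 50 bases after a start site. Symbols matched for 16 of the 29 members. Matches are in capitals, searched on both strands as GNACANNNTGTNC for the paired element and as AGAACA or TGTTCT for the single arm.
Fam107a (chr14:8309728-8310027, minus strand): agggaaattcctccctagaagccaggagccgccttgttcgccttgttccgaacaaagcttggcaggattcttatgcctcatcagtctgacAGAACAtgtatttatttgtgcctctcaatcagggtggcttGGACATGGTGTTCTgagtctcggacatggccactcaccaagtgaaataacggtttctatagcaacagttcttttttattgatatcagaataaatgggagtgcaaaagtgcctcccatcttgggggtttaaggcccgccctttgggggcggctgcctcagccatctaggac
BB123696 (chr13:52757156-52757455, minus strand): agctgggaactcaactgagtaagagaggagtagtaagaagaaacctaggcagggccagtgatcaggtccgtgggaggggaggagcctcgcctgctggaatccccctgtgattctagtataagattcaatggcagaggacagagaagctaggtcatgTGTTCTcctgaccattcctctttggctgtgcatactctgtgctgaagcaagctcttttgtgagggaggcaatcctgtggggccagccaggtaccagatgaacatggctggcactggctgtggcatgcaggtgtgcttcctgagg
Ifi207 (chr1:173741760-173742059, minus strand): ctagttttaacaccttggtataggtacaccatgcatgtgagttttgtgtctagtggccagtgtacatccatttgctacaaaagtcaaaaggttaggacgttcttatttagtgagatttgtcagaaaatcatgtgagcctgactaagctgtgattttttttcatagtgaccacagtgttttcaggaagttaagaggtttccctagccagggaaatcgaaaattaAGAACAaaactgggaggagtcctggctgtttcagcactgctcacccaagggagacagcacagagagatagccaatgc
Ripply1 (chrX:139782304-139782603, minus strand): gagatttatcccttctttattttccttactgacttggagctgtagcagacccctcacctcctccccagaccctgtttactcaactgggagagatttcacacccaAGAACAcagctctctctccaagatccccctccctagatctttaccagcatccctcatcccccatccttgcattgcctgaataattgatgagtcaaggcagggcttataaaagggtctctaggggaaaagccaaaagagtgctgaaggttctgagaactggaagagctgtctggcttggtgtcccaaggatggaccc

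In the window of *Fam107a*, the paired element began 120 bases before the start and overlapped a single arm that began 112 bases before it, and another began 160 bases before it. A second *Fam107a* start gave a window shifted by 2 bases with the same letters. The window of a further *Fam107a* start held neither the paired element nor the single arm. The single arm lay 94 bases before the start in *BB123696*, 27 in *Ifi207* and 146 in *Ripply1*, and those in *Nyx* and *Gabrr2* lay 53 and 167 bases before it. The paired element was found in 1 of 16 members (6.25%), in 0.537% of 27025 genes with windows and in 0.634% of 2365 such genes below 4 with vehicle. The single arm was found in 6 of 16 (37.5%), against 21.3% and 25.03%. The stricter repeat of AGAACA was in none of the 16 and in 0.0111% of all genes. A match describes letters only, and its absence says only that these letters are not in this window.

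**Figure D1:**
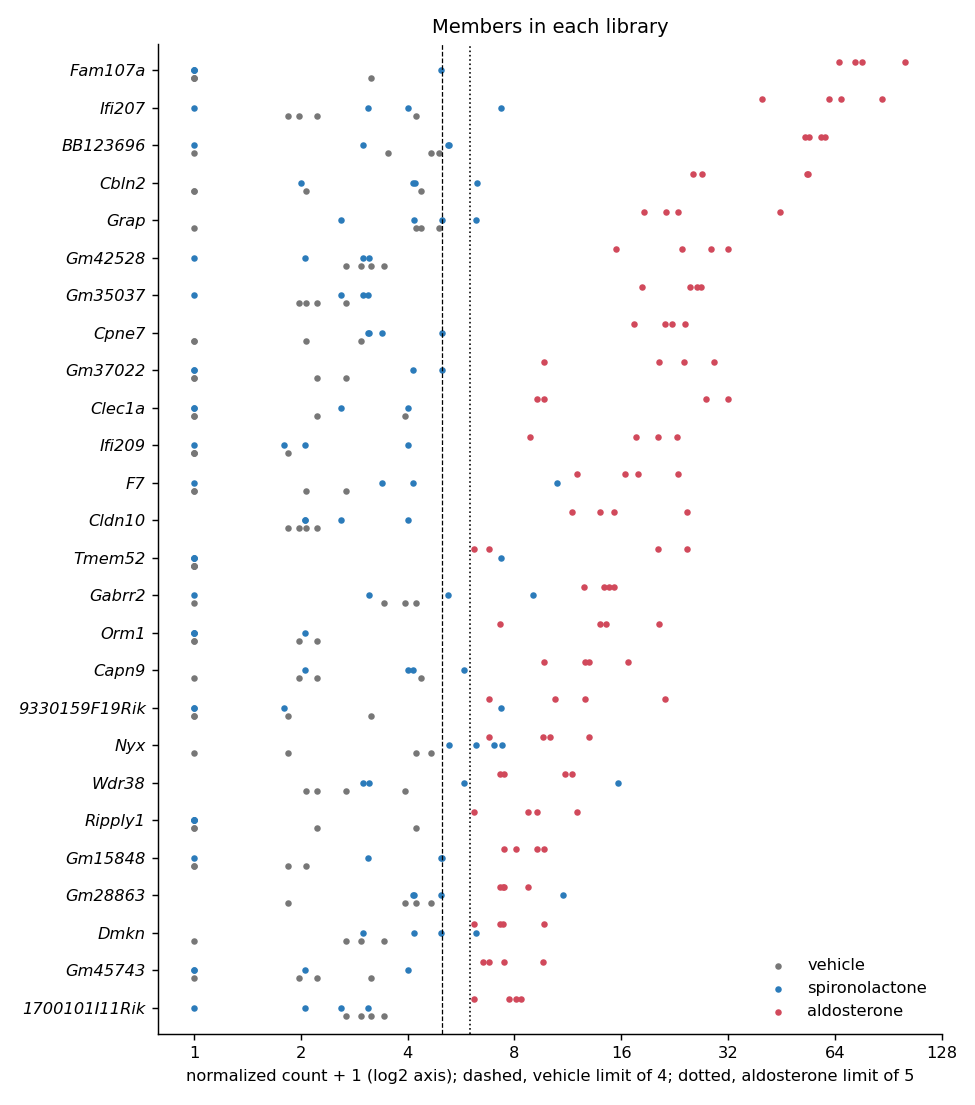
Each point is a library, with the members on the y axis (ordered by aldosterone mean) and the normalized count plus 1 on a log2 x axis, and coinciding points hide each other, for 26 of the 29 members. The dashed and dotted lines are the limits of 4 and 5. Aldosterone points (red) lie right of both lines because of how members were chosen, while spironolactone points (blue) of 11 members reach 5 or more.

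Values in the 4 libraries of a treatment are given below in a fixed order, sample number 1 with replicates 1 and 2, then sample number 2 with replicates 1 and 2. Aldosterone values come from a table normalized together with vehicle and spironolactone values from another such table, and the summed level of the members in the vehicle libraries was 30.2 to 41.9 in the one and 30.3 to 42.1 in the other. With aldosterone this sum was 515 to 619, and with spironolactone 53.3 to 75.95. Over the 29 members, aldosterone exceeded vehicle by a median of 2.99 on the scale of log2(value + 1), which understates the change of low genes. At an adjusted p of at most 0.05 with a log2 difference of 1 or more (limma), 27 members passed as higher with aldosterone than with vehicle, where 1.40% of all genes did, and the 2 others were *1700101I11Rik* and *Gm28863*. Nothing is read from this count, since the same values chose the members.

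The members that act inside the cell differed widely in level. *Fam107a* (mm39 chromosome 14, 14151750 to 14173499, plus strand), an actin-associated gene known to be raised by glucocorticoids in brain, had 64.6, 75.2, 71.8 and 99.7 normalized counts with aldosterone, 0, 0, 0 and 2.15 with vehicle and 0, 3.98, 0 and 0 with spironolactone. Its reads outside aldosterone were in a single vehicle library and a single spironolactone library. Pooled over the libraries of a treatment and scaled by their size factors, its reads were 158 times as many with aldosterone as with vehicle, on 2 vehicle reads. The exact 95% counting interval was 43.5 to 1313. It covers counting error only, and these values chose the gene. *Grap*, an adaptor of receptor signaling related to *Grb2*, had 43.9, 22.2, 17.5 and 20.4 with aldosterone, 3.36, 3.90, 0 and 3.22 with vehicle and 5.25, 1.59, 3.18 and 3.997 with spironolactone. The first aldosterone library was the highest of *Grap*, and a spironolactone library above 5 did not reach any aldosterone library. *Cpne7*, a copine that binds membranes when calcium rises, had 23.3, 16.4, 20.3 and 21.2 with aldosterone, 0, 1.95, 0 and 1.07 with vehicle and 2.10, 2.39, 2.12 and 3.997 with spironolactone. Every spironolactone library of *Cpne7* was above every vehicle library.

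Among the genes of the nucleus, *Ifi207* and *Ifi209* belong to the Ifi200 family of DNA-binding proteins raised by interferon. *Ifi207* (chromosome 1, 173550993 to 173569313, minus strand) had 38.8, 85.8, 65.4 and 60.4 with aldosterone, 0.839, 0.976, 1.22 and 3.22 with vehicle and 2.10, 0, 6.35 and 2.998 with spironolactone, and *Ifi209* had 21.96, 19.3, 16.6 and 7.85, 0.839, 0, 0 and 0 and 1.05, 0.796, 0 and 2.998 in the same order. The aldosterone libraries of *Ifi207* varied over a range of more than 2-fold without overlap with the other treatments. *Ripply1*, a corepressor of somite formation, had 5.17, 7.71, 8.29 and 10.99 with aldosterone, 0, 0, 1.22 and 3.22 with vehicle and no read in any spironolactone library. For its pooled and scaled reads with aldosterone over spironolactone, the lower end of the exact 95% counting interval was 9.03-fold. Against the 3 reads over the group that a count of 0 allows, the ratio was 11.7-fold. The aldosterone values had a part in the choice of the gene, and the interval covers counting error only. *Wdr38*, whose role is little known, had 6.46, 10.6, 10.1 and 6.28 with aldosterone, 1.68, 2.93, 1.22 and 1.07 with vehicle and 14.7, 4.78, 2.12 and 1.999 with spironolactone. The first spironolactone library of *Wdr38* was above all its aldosterone libraries.

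The next genes encode secreted or extracellular proteins. *Orm1*, the acute-phase protein alpha-1-acid glycoprotein, had 19.4, 13.5, 12.9 and 6.28 with aldosterone, 0, 0.976, 1.22 and 0 with vehicle and 0, 0, 1.06 and 0 with spironolactone. *F7*, the coagulation factor that starts clotting with tissue factor, had 16.8, 15.4, 22.1 and 10.99 with aldosterone, 1.68, 0, 0 and 1.07 with vehicle and 3.15, 2.39, 9.53 and 0 with spironolactone. Both are made mainly by the liver, and only *F7* had a spironolactone library above 5. *Cbln2*, a secreted organizer of synapses, had 24.5, 26.01, 52.5 and 52.6 with aldosterone, 3.36, 0, 0 and 1.07 with vehicle and 3.15, 3.18, 5.29 and 0.999 with spironolactone. *Dmkn*, the secreted dermokine of skin, had 5.17, 8.67, 6.44 and 6.28 with aldosterone, 1.68, 1.95, 2.44 and 0 with vehicle and 5.25, 3.98, 3.18 and 1.999 with spironolactone. The spironolactone and aldosterone libraries of *Dmkn* overlapped. *Nyx*, nyctalopin, a leucine-rich repeat protein needed for signaling in the retina, had 9.04, 5.78, 11.97 and 8.63 with aldosterone, 0.839, 0, 3.66 and 3.22 with vehicle and 5.25, 6.37, 4.23 and 5.996 with spironolactone. All spironolactone libraries of *Nyx* were above all its vehicle libraries, 3 of them at 5 or more, and they overlapped the aldosterone libraries.

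*Capn9*, a calcium-dependent protease known from the digestive tract, had 11.6, 8.67, 11.97 and 15.7 with aldosterone, 3.36, 0.976, 1.22 and 0 with vehicle and 3.15, 4.78, 1.06 and 2.998 with spironolactone. No spironolactone library of *Capn9* reached an aldosterone library.

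At the cell surface, *Cldn10*, a tight junction claudin that forms ion pores, had 14.2, 10.6, 12.9 and 23.5 with aldosterone, 0.839, 0.976, 1.22 and 1.07 with vehicle and 1.05, 1.59, 1.06 and 2.998 with spironolactone. *Gabrr2*, a subunit of a GABA receptor known from retina, had 14.2, 11.6, 13.8 and 13.3 with aldosterone, 0, 2.93, 2.44 and 3.22 with vehicle and 4.20, 0, 2.12 and 7.99 with spironolactone. The last spironolactone library of *Gabrr2* lay between its other treatments' values. *Tmem52*, a transmembrane protein of unknown role, had 5.17, 5.78, 19.3 and 23.5 with aldosterone, no read in any vehicle library and 0, 0, 6.35 and 0 with spironolactone. For its pooled and scaled reads with aldosterone over vehicle, the lower end of the same interval was 15.3-fold. Against 3 reads over the group the ratio was 19.3-fold. These values chose the gene, and the interval covers counting error only, not the spread between libraries. The only spironolactone reads of *Tmem52* were in 1 library. *Clec1a*, a C-type lectin receptor known from dendritic and endothelial cells, ranged from 8.29 to 31.00 with aldosterone, from 0 to 2.93 with vehicle and from 0 to 2.998 with spironolactone.

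The noncoding *BB123696* (chromosome 13, 52883651 to 52911241, minus strand) had 51.7, 52.99, 58.9 and 57.3 with aldosterone, 2.52, 3.90, 3.66 and 0 with vehicle and 4.20, 0, 4.23 and 1.999 with spironolactone, and its aldosterone libraries varied least of all members (coefficient of variation 6.24%, median of the 29 members 28.04%). *Gm35037* (chromosome 7, 3499873 to 3523536, plus strand) had 25.8, 17.3, 23.9 and 25.1 with aldosterone, 1.68, 0.976, 1.22 and 1.07 with vehicle and 2.10, 1.59, 0 and 1.999 with spironolactone. Per kb of gene length *Gm35037* had the highest aldosterone mean, 45.6 normalized counts per kb, before *BB123696* with 23.9, *Fam107a* with 20.1 and *Ifi207* with 18.3. The SDs per kb were 7.69, 1.49, 3.94 and 5.64 in turn, so *Gm35037* stood above the others by more than the spread, while neighbors in the order after it did not. *Nyx* had the lowest, 1.71 per kb. *Gm28863* had 6.46, 7.71, 6.44 and 6.28 with aldosterone, 0.839, 2.93, 3.66 and 3.22 with vehicle and 3.15, 3.98, 3.18 and 9.99 with spironolactone, and one spironolactone library was above all its aldosterone libraries. *1700101I11Rik* had 5.17, 6.74, 7.37 and 7.06 with aldosterone, 1.68, 1.95, 2.44 and 2.15 with vehicle and 2.10, 1.59, 1.06 and 0 with spironolactone, all groups of libraries low and the aldosterone libraries above the rest. *Gm37022* had 19.4, 8.67, 23.02 and 28.3 with aldosterone, 1.68, 0, 1.22 and 0 with vehicle and 3.15, 0, 0 and 3.997 with spironolactone. The coding *9330159F19Rik* had 11.6, 5.78, 20.3 and 9.42 with aldosterone, 0.839, 0, 0 and 2.15 with vehicle and 0, 0.796, 6.35 and 0 with spironolactone, its reads of the last treatment lying almost all in 1 library. With aldosterone, *Gm42528* ranged from 14.5 to 31.00, *Gm15848* from 6.46 to 8.67 and *Gm45743* from 5.52 to 8.63, and their spironolactone libraries were all below 4.

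Most members were expressed at a low level also with aldosterone: 8 had a mean of 20 or more and 10 a mean under 10. Summed over the 4 libraries they had 28 to 333 reads with aldosterone, at most 11 with vehicle and at most 24 with spironolactone. "Silent" therefore means a few reads at this depth, and 22 of the 29 had no read in at least 1 vehicle library. The limits cut through a continuum. Nearest inside the vehicle limit were *BB123696* and *Grap*, both with a highest vehicle library of 3.90, and *Gm28863* with 3.66. Just outside it were *Fcamr* and *Il1r2* with 4.19 and *Fgf2os* with 4.29. *Fcamr* had 24.5, 16.4, 17.5 and 16.5 with aldosterone and 4.19, 0.976, 3.66 and 1.07 with vehicle, *Il1r2* had 9.04, 23.1, 11.05 and 10.2 and 4.19, 1.95, 2.44 and 3.22, and *Fgf2os* had 5.17, 13.5, 7.37 and 14.1 and 0, 0.976, 3.66 and 4.29. The lowest aldosterone library was 5.17 in 5 tied members inside the limit, among them *1700101I11Rik*, *Dmkn*, *Ripply1* and *Tmem52*, and 4.71 for *Ppil6*, 4.60 for *Calca* and 4.60 for *Dusp2* outside it. With aldosterone *Ppil6* had 9.04, 4.82, 20.3 and 4.71, *Calca* had 6.46, 6.74, 4.60 and 16.5 and *Dusp2* had 5.17, 4.82, 4.60 and 6.28, and with vehicle they had 2.52, 3.90, 2.44 and 1.07, then 0, 0, 3.66 and 1.07, then 0, 1.95, 2.44 and 0.

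The spironolactone libraries, which played no part in the choice, show whether the antagonist alone brought any of these genes above the limits. Of the 29 members, 15 were below 4 in every spironolactone library, or 51.7%, where 82.2% of the 6310 genes below 4 with vehicle and listed with spironolactone were. At least 1 spironolactone library reached 5 in 11 members, or 37.9%, against 10.6% of those genes, and in 10 of the 11 it was a single library. The exception was *Nyx*, and no member reached 5 in every spironolactone library. The genes below 4 with vehicle did not have to reach 5 with aldosterone, so they are not matched to the members for level. No response to spironolactone is read from these shares. Under the same limits only 1 gene, *4930412B13Rik*, was silent with vehicle and on with spironolactone, and it is not a member. In the reverse direction, 10 genes were on with vehicle and silent with aldosterone, among them *Cxcl3*, *Selp* and *Tacr2*.

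The mean log2 value with spironolactone was above that with vehicle in 22 members and below it in 7, with a median difference of 0.45, against a median within 0.01 of 0 for the genes below 4 with vehicle. Of those genes, 3131 were higher and 3179 lower with spironolactone, and of all genes 12664 and 13461. The vehicle values had a part in the choice of members, and the spironolactone values had none. The genes below 4 with vehicle met the same vehicle limit and split about evenly, but they were not chosen by aldosterone values. The reason for the split of the members was not tested, and nothing is read from it. By limma, 0 of 29 members passed as higher or lower with spironolactone than with vehicle (0% of 27598 genes, smallest adjusted p among members = 0.934). At an unadjusted p under 0.05 were 3 members and 1251 of all genes, and edgeR on the recovered reads of all genes called 0 members, with 0 at an unadjusted p under 0.05. DESeq2 gave no adjusted p for any of the 29, and 0 had an unadjusted p under 0.05. Among the 3 by limma were *Nyx*, higher by 1.38 (SE 0.56), and *Cpne7*, higher by 1.18 (SE 0.52), both on the log2 scale and both with an adjusted p of 0.934. At 24 reads or fewer per member and group, a difference of a few reads was not detectable. Every spironolactone library was above every vehicle library in 2 members, *Cpne7* and *Nyx*, and in 1.39% of all genes.

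**Figure D2:**
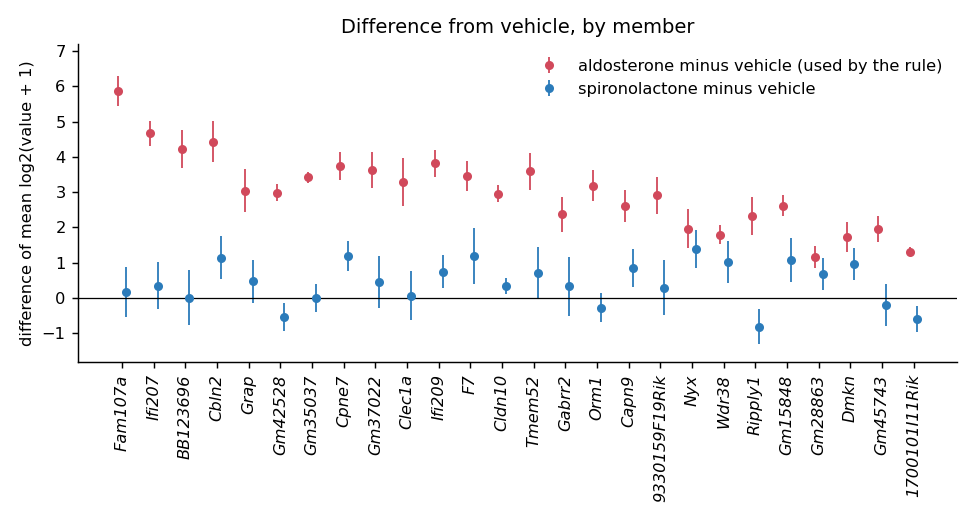
The difference of mean log2(value + 1) from vehicle is on the y axis for 26 of the members on the x axis (ordered by aldosterone mean), in red for aldosterone, which the choice of members used, and in blue for spironolactone, with bars of 1 SE (n = 4 libraries per group). The blue points lie between -0.81 in *Ripply1* and 1.38 in *Nyx*.

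Against spironolactone, where the rule used the aldosterone values only, 24 members passed as higher with aldosterone by limma and 1.38% of all genes did. The others were *Dmkn*, *Gm15848*, *Gm28863*, *Nyx* and *Wdr38*. The count was 14 without the first and 13 without the second aldosterone library of sample number 2, and 16 to 19 without any other library. Every aldosterone library was above every spironolactone library in 23 members and in 6.76% of all genes, and the groups overlapped in *Gm28863*, *Tmem52*, *Dmkn*, *Wdr38*, *9330159F19Rik* and *Nyx*. The same limits applied to spironolactone and aldosterone gave 17 genes, 10 of them members, which is 34.5% of the members and 58.8% of the 17. Among the 10 were *Gm35037*, *Gm42528*, *Orm1*, *Ifi209*, *Clec1a*, *Ripply1*, *Cldn10*, *Gm45743* and *1700101I11Rik*. These comparisons share the aldosterone libraries with the choice of members, so the direction is in part fixed.

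The sample number, which the choice did not use either, separated the aldosterone libraries of some members, about as often as in all genes. *Tmem52* had a mean of 5.47 in the 2 libraries of sample number 1 and 21.4 in those of sample number 2, *Cbln2* had 25.3 and 52.5, and *Gm37022* had 14.02 and 25.6. The libraries of the sample numbers did not overlap in 12 of the 29 members, 8 higher in sample number 2 and 4 in sample number 1. Over all genes, 39.3% did not overlap, a share close to that of the members, so such a separation is not particular to them. By limma, 0 of 29 members passed (0% of 27319 genes), with 2 members and 3969 of all genes at an unadjusted p under 0.05. The 2 were *Cbln2* (log2 difference 1.03, SE 0.15, adjusted p = 0.167) and *Tmem52* (log2 difference 1.79, SE 0.29, adjusted p = 0.175). With a filter that kept means of 1 or more, limma called both, with an adjusted p of 0.0435 for *Cbln2* and 0.0346 for *Tmem52*, and edgeR on the recovered reads of all genes called both, with 0.00987 and 0.0104. These fits called 103 genes higher and 50 lower in sample number 2 of 21689, and 137 higher and 61 lower of 26072. The difference in the response to aldosterone between the sample numbers, tested as an interaction with limma, passed for 0 of 29 members and 4 of all genes, and 0 members had an unadjusted p under 0.05. Its smallest unadjusted p was 0.0684 for *Tmem52*, whose vehicle libraries held no read.

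**Figure D3:**
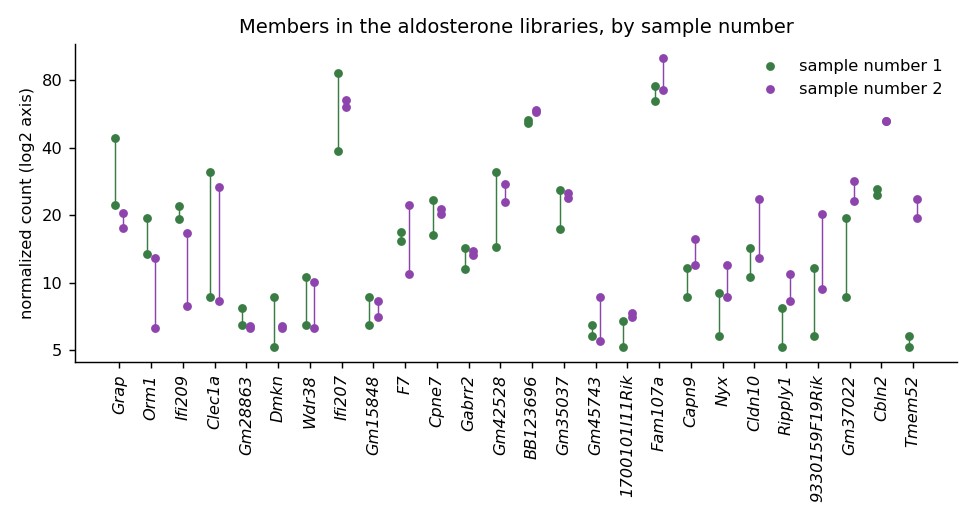
Normalized counts in the 4 aldosterone libraries are on a log2 y axis, green for sample number 1 and purple for sample number 2, for 26 of the members on the x axis in the order of their ratio. At the right, *Cbln2* and *Tmem52* have both purple points above both green points, by 2.08-fold and 3.92-fold on the means.

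Many members lay near other genes that were higher with aldosterone. Within 100 kb, 16 of the 29 members (55.2%) had another gene called higher with aldosterone than with vehicle, against 5.97% of all genes, 5.79% of the other genes below 4 with vehicle and 27.9% of the other genes called higher. None of the 29 had a gene called lower within 100 kb, where 2.78% of all genes did. The members had a median of 5 listed genes within 100 kb and all genes had 6. These shares are descriptions over genes of the same libraries, with no test, and several members share a neighbor. The 16 did not change when other members were not counted as neighbors, and were 15 without overlapping genes.

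The nearest such neighbors were of several kinds. *Cpne7* (chromosome 8) lay 5.01 kb from *Sult5a1*, a sulfotransferase, and 51.1 kb from *Dpep1*, a dipeptidase, which rose by 5.00 on the log2 scale (SE 0.08, adjusted p = 8.04e-16) from 77.5 ± 6.55 to 2509 ± 119 normalized counts. *Gm42528* (chromosome 5) lay 3.59 kb from *Hs3st1* on the same strand, a heparan sulfate sulfotransferase that rose by 3.58 on the log2 scale (SE 0.45, adjusted p = 4.41e-05). *Capn9* (chromosome 8) lay 6.41 kb from *Agt*, the angiotensin precursor, which rose by 1.64 on the log2 scale (SE 0.23, adjusted p = 0.000125) from 91.9 ± 31.3 to 282 ± 72.99 normalized counts. *F7* (chromosome 8) lay 5.13 kb from *Mcf2l*, a guanine nucleotide exchange factor that rose by 1.28 on the log2 scale (SE 0.12, adjusted p = 1.31e-06).

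On chromosome 6, *Clec1a* and *1700101I11Rik* lay on either side of *Olr1*, a lectin-like receptor for oxidized lipoprotein that rose by 1.96 on the log2 scale (SE 0.47, adjusted p = 0.0115), and *Clec9a*, next to *Clec1a*, had no vehicle read and a mean of 2.82 with aldosterone. *Ripply1* and the claudin *Cldn2*, *Gm35037* and the calcium channel subunit *Cacng8*, *Gm37022* and the natriuretic peptide gene *Nppc*, and *Tmem52* and the GABA receptor subunit *Gabrd* were further pairs. *Gm15848* overlapped *Fcamr* on the other strand, one of the genes just outside the vehicle limit. Members that overlap highly expressed genes were *Wdr38* (with *Rpl35* and *Arpc5l*), *1700101I11Rik* (with *Gabarapl1*) and *Gm28863* (with *Adm*), and *Grap* overlaps *Slc5a10*. The sources used here do not state that strand was used in counting, so reads of overlapping genes on opposite strands cannot be told apart. *Adm* had 2104 ± 212 normalized counts with vehicle and 3907 ± 302 with aldosterone. *Gm28863* was the only member that passed neither against vehicle nor against spironolactone. The calls of *Cldn2*, *Clec9a*, *Gabrd*, *Olr1*, *Tarm1*, *Orm2* and *Orm3* were lost when 1 library was left out or another test was used, and the number of members with such a neighbor was 14 or 15 without any 1 library.

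**Figure D4:**
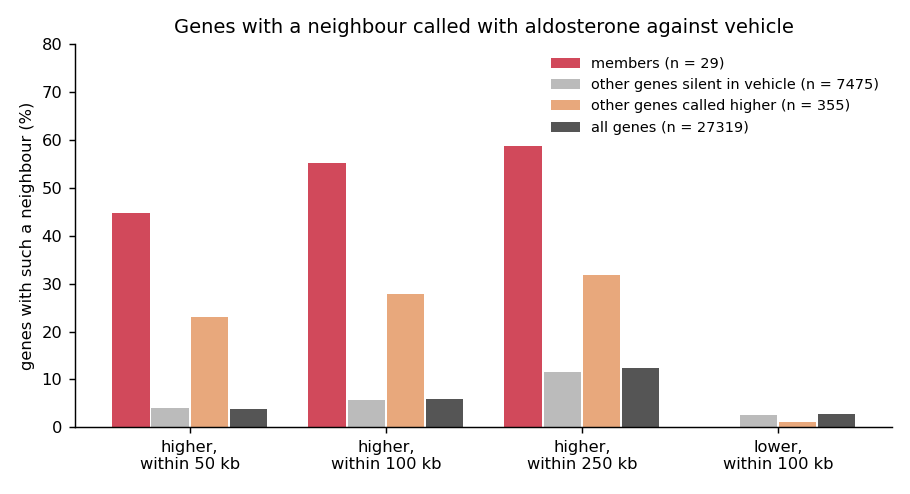
Bars give the percentage of genes (y axis, from 0) with a neighbor called higher or lower with aldosterone within the distance on the x axis, for the members (red), other genes silent with vehicle (light grey), other genes called higher (orange) and all genes (dark grey). At 50, 100 and 250 kb the members stand at 44.8%, 55.2% and 58.6%, and at 0 for neighbors called lower.

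Relatives of the members, which the rule left out, were compared between aldosterone and vehicle with limma. Both other orosomucoids rose, *Orm3* by 2.55 on the log2 scale (SE 0.55, adjusted p = 0.00541) and *Orm2* by 2.14 on the log2 scale (SE 0.60, adjusted p = 0.0295), with aldosterone means of 7.34 and 6.07. The call of *Orm2* was lost without any 1 of the 8 libraries but the last vehicle library, and that of *Orm3* without the second or the last vehicle library or the third aldosterone library. *Orm1*, *Orm2* and *Orm3*, and the genes of the Ifi200 family, are similar in sequence, so how reads were split between them is uncertain.

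In the Ifi200 family, 1 of 7 others rose, *Ifi204* beside *Ifi207*, from 118, 165, 126 and 106 with vehicle to 417, 422, 459 and 432 with aldosterone, a rise of 1.76 on the log2 scale (SE 0.12, adjusted p = 3.95e-08). *Ifi211* and *Mndal*, with aldosterone means of 182 and 48.8 and vehicle means of 124 and 37.8, did not pass. Of 14 other claudins, 2 rose, *Cldn1* by 2.05 on the log2 scale (SE 0.23, adjusted p = 1.05e-05) and *Cldn2* by 2.41 on the log2 scale (SE 0.61, adjusted p = 0.0156). The most abundant other claudin, *Cldn12*, had means of 586 with aldosterone and 555 with vehicle and did not pass. None of 2 other cerebellins, 7 other copines and 12 other calpains passed by limma. *Cpne8*, *Capn1* and *Capn5* had an adjusted p of at most 0.05 but were under the fold limit. Of the lists with no member, 2 of 10 synaptic vesicle genes rose and 1 fell, 2 of 6 ketogenesis genes and 1 of 6 secreted phospholipases A2 rose, and so did the only Tim family gene listed, *Havcr2*. Among 10 other genes of the acute phase and blood list, which shares *Orm2* and *Orm3* with the orosomucoids, 5 rose and 1 fell. *Hp*, haptoglobin, rose from 122 ± 44.6 to 1036 ± 268 normalized counts (SD, n = 4), and *Lcn2*, lipocalin 2, from 75.99 ± 7.61 to 809 ± 98.7. These lists were chosen with earlier results of these data known, so their counts are descriptions, and over all genes 1.40% were called higher with aldosterone. No gene of these lists passed between spironolactone and vehicle, where 0 of all 27598 genes did.

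**Figure D5:**
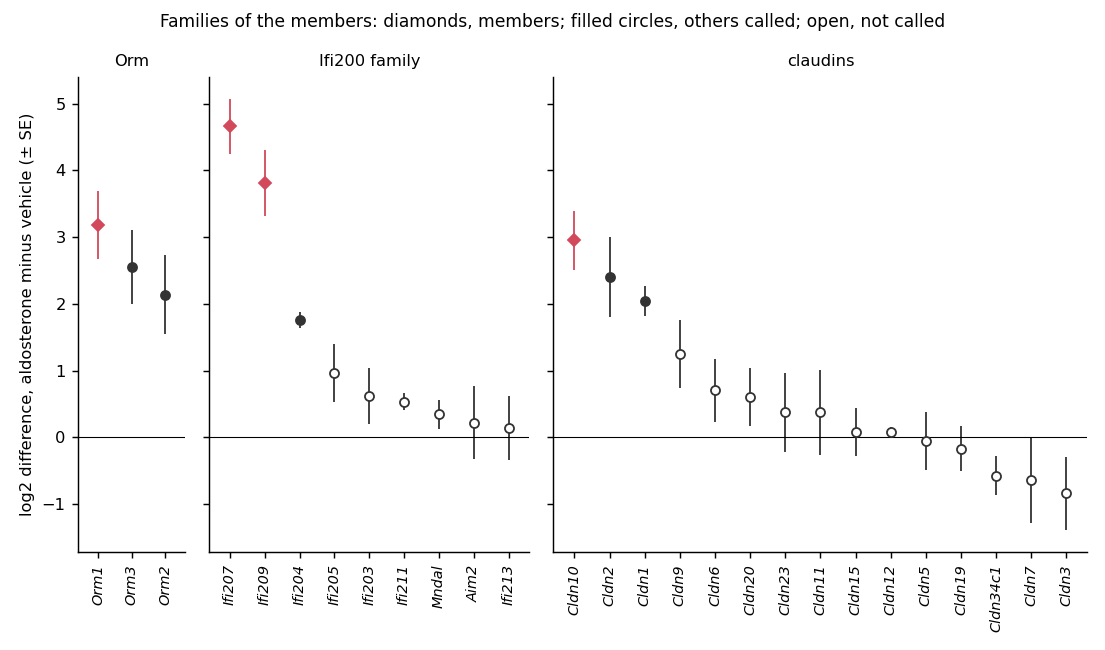
The log2 difference between aldosterone and vehicle with its SE is on the y axis for the listed genes of 3 families on the x axis. Members are red diamonds, placed high by the choice, other genes that passed are filled circles and those that did not are open. Among the Ifi200 genes *Ifi204* (1.76) and among the claudins *Cldn2* and *Cldn1* are the filled circles.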

How the data were processed

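Poly(A) RNA of 12 libraries was sequenced, 4 each for aldosterone, spironolactone and vehicle. The authors aligned reads with HISAT2 2.0.5 and counted them per gene with featureCounts 1.5.0-p3. Per the labels the build is mm39, while the study's methods name another, and the deposited coordinates are used as given. Whether counting used strand is not given in the sources used here, and the protocol text describes both directional and non-directional libraries. The deposited values are normalized counts (a signal: counts divided by a size factor), in a table for each pair of treatments, normalized separately. Log2 fold changes and p-values of the authors' own comparisons are in the same deposited tables and were not used. No column belonged to other samples (0).

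The members and gene lists were chosen with earlier results of these data known. Values were compared as log2(value + 1) for every gene of a table, with no filter, in limma 3.58.1 with trend (R 4.3.3), with Benjamini-Hochberg adjustment and limits of 0.05 on the adjusted p and 1 on the log2 difference. Plates, not animals, are the replicates. The deposited values are whole multiples of the value of 1 read, and 100% of values in each column came out whole within 0.01 of a read (in proportion above 1000 reads), so reads were recovered. The edgeR test on them called 322 genes higher and 146 lower with aldosterone than with vehicle. Alternatives were a pseudocount of 0.5, a mean of at least 1, edgeR 4.0.16 and DESeq2 1.42.0 on the recovered reads, each library left out in turn, other limits of the rule and a block on the sample number. The main limma fit, edgeR with its filter and DESeq2 were tested on simulated data for the comparisons between treatments, and the other fits were not. Changed genes were simulated only among genes with more reads on average than any member, so low counts like those of the members were not covered. Libraries with the same sample number in the labels deviated together (24 pairs across treatments, r from 0.187 to 0.412, mean 0.328, 15313 genes), so the sample numbers pair the samples. Those with the same replicate number did not (24 pairs, r from -0.452 to 0.412, mean -0.00505). Intervals and floors cover counting error only.

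Of the members, 26 are named, and 3 are counted but not reported here by name, with the relatives and neighbors that go with them. By the rule all members are named and values in every library are given for the 10 highest aldosterone means per kb, members with a spironolactone library at 5 or above, members of a listed family, the 3 nearest each limit on either side, and the 3 that differed most between sample numbers. The other genes of listed families are given by counts, with values for up to 4 of them, mainly those with the largest means, and genes called within 100 kb of a member were named after their values were seen. Levels per kb use the gene lengths of the deposited tables.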

Additional observations from a re-analysis of the deposited data

Results flagged for a closer look

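Among 40 groups of 4 libraries examined for a library far from the others, 4 stood out by the gap to the nearest library divided by the range. Groups were examined only where a library reached 5. Of the 11 spironolactone groups that did, 10 had a single library at 5 or more. The usual chance rate of about 1 in 20 groups therefore does not hold here. *Gm28863* had 7.71 normalized counts in aldosterone sample number 1 replicate 2, and 6.46 was nearest (gap over range 0.875). *Gm28863* also had 9.99 in spironolactone sample number 2 replicate 2, where 3.98 was nearest (0.879). *Tmem52* had 6.35 in spironolactone sample number 2 replicate 1 and 0 in the other libraries. *9330159F19Rik* had 6.35 in that same library, where 0.796 was nearest (0.875).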

How the results depend on the processing

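All 29 members rest on few reads outside aldosterone, which limits what the comparison of spironolactone with vehicle can detect. Counts of members higher with aldosterone than with spironolactone (24) and with vehicle (27) were 12 and 12 in edgeR with its filter, which only 12 members passed in each comparison, through the aldosterone libraries. Without that filter edgeR gave 21 and 26. DESeq2 gave 20 and 23, with no adjusted p for 4 and 5 members. Leaving out 1 library gave 13 to 19 and 23 to 26. Between spironolactone and vehicle the count was 0 to 0 without any 1 library, edgeR with its filter tested 0 members, and DESeq2 gave no adjusted p for the 29. The replicate block on the sample number gave 24, 27 and 0, and changed no call of a member or of the 41 other genes followed. Over all genes it moved the calls from 381 higher and 144 lower to 430 and 205, from 382 and 182 to 435 and 261, and from 0 and 0 to 0 and 2. Between sample numbers with aldosterone, edgeR called 2 members with and 2 without its filter, limma with a filter that kept means of 1 or more called 2. Without any 1 library 0 to 0 were called, but an arm then holds 1 library, assumed to vary like the other, and the calls over all genes swung with the library left out (4 higher and 571 lower in one case, 763 and 2 in another), so this says nothing on stability.

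The rule gave 4 genes with vehicle below 2 and aldosterone at 10 or more, 12 with vehicle below 4 and aldosterone at 10 or more, 22 on recovered reads, 27 on depth-scaled counts, and 32 to 40 without any 1 library. Members below a limit in every spironolactone library (15) were 3 at a limit of 2, 18 at 5, 10 in the table with aldosterone and 16 to 20 without any 1 library. The motif count (1) was 6 for the single arm AGAACA and 0 for the stricter repeat. Members with a called neighbor (16) were 14 to 15 without any 1 library and 12 to 17 under the other settings. Of 41 genes outside the members that were followed, none changed direction, 26 kept their call in every fit that gave an adjusted p, and 15 lost it in at least 1. The edgeR fits of all genes, the neighbor settings and the interaction with sample number were chosen after seeing the data. Where a count moved for a reason not given here, the cause was not tested.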
